A study of Mus musculus with 16 samples.

Results

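The genes carried by the mitochondrial chromosome are described here in 16 RNA sequencing libraries that follow mouse embryonic fibroblasts through chemical treatment towards a neural stem-like state. The members are all rows of the deposited count table whose chromosome is MT, which came to 37 of 37991 rows, made up of 13 protein genes, 2 rRNA genes and 22 tRNA genes. The D0 group (2 libraries) is untreated tdMEFs, fibroblasts of the 129xC57BL6 background in which an Fsp1-Cre driver and a ROSA26 tdTomato reporter trace cells that have expressed Fsp1, grown in serum medium at 20% oxygen. The D4, D8 and D12 groups (3 libraries each) are the same kind of cells after 4, 8 and 12 days in M9 medium at 5% oxygen. M9 holds CHIR99021, LDN193189, A83-01, Hh-Ag1.5, retinoic acid, SMER28, RG108, Parnate and bFGF in N2 and B27 medium with BSA and nonessential amino acids, so that the medium, the oxygen level and the compounds changed together and cannot be told apart. The ciNSLC group (3 libraries) is the reprogrammed cells, also 129xC57BL6, for which an oxygen level is not given in the labels. The neural controls are the SCR029 line (1 library), C57BL6 cortical neural stem cells from embryonic days 15 to 18, and priNPC (1 library), 129xC57BL6 cortical neural stem cells from E13.5 embryos. The descriptions give the 3 ciNSLC libraries different names (E13_1, ciN_1_P4 and ciN_2_P2) without saying what the names stand for. The labels do not say whether the libraries of a group came from separate cultures or lines, so p-values measure the spread between these libraries, which may be technical.

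The mitochondrial chromosome is transcribed from both of its strands into long RNAs, which are cut at the tRNAs that lie between most of the other genes. The protein genes encode core subunits of complexes I, III and IV of the respiratory chain and of the ATP synthase (complex V), and the rRNAs and tRNAs serve the translation of these mRNAs inside the organelle. All other subunits, and all factors that transcribe, process and degrade the RNA, are encoded in the nucleus. In the files' mm9 coordinates 28 of the 37 genes lie on the plus strand and 9, which are mt-Nd6 and 8 tRNAs, on the minus strand. The start, end and strand of all 37 rows are identical in GENCODE M21, from which the sequences below were read.

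The following sequences are shown because they bear on how far single rows can be read. The tRNAs mt-Tl1 (leucine, MT:2676-2750) and mt-Tr (arginine, MT:9808-9875) are those called in a comparison below, and capitals mark the anticodon as found from the stem and loop around it. The third sequence is the stretch MT:7927-7969 that mt-Atp8 and mt-Atp6 share, with the start codon of mt-Atp6 and the stop codon of mt-Atp8 in capitals. The last is mt-Nd4l (MT:9877-10173), in which lower case marks the 294 bases that are identical in Gm10222, a copy on chromosome 1, and capitals mark the bases beyond the annotated end of that copy. All 4 are on the plus strand.
mt-Tl1: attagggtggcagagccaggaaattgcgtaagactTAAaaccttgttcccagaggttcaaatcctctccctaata
mt-Tr: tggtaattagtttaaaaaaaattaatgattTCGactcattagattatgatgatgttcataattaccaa
mt-Atp8/mt-Atp6 overlap: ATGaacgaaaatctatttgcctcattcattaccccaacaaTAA
mt-Nd4l: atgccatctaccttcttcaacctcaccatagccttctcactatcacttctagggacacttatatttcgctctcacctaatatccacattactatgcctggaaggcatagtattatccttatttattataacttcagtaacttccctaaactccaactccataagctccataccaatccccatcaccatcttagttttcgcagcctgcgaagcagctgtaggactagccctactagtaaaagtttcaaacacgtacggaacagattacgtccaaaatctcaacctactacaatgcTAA

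Copies of mitochondrial genes in the nuclear genome can share reads with them. GENCODE M21 holds copies on chromosome 1 of 7 of the protein genes, and over the aligned bases 5 of these were 100% identical, those of mt-Co2, mt-Atp6, mt-Co3, mt-Nd4l and mt-Nd4. The copy of mt-Nd3 was 99.7% identical and the partial copy of mt-Co1 98.8%. Only the copies of mt-Atp6 (Gm10925) and mt-Nd4l (Gm10222) have rows in the count table. Gm10925 held 1298 to 6718 counts, which was 14.3 to 21.5 per 100 counts of mt-Atp6 in every library. Gm10222 held 2 to 131 counts and mt-Nd4l 7 to 118, while the adjoining mt-Nd4 held 894 to 2410 counts for each count of mt-Nd4l. How the authors' counting treated reads with several matches is not given in the sources used here, so the values of these genes are uncertain. The same holds for strand, which leaves reads of mt-Nd6 and mt-Nd5 (14 shared bases), of mt-Atp8 and mt-Atp6 (43) and of mt-Nd4l and mt-Nd4 (7) open to mixing in those stretches.

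Library totals were 29.4 to 55.5 M counts, or 14.5 to 34.6 M without the rRNA rows, and levels are CPM, counts per M of that second total with TMM factors. The sum of 7 fibroblast markers was 27300 and 31100 CPM at D0 and 30.4 to 182 in ciNSLC, and that of 6 neural stem markers 38.8 to 59.4 and 5710 to 6480 CPM, without TMM factors. D0 replicate 2 held 5210 CPM of 12 myeloid markers, such as Lyz2 and Csf1r, against 17.2 in D0 replicate 1, and none of the 12 was at 0 in either. Their part in the differences from D0 was not tested.

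Replicate 1 of D4, D8 and D12, the treated libraries of batch 1 as the descriptions name it, stood apart from the other 13 libraries in the make-up of their mitochondrial RNA. In these 3 libraries the rRNA genes held 43.6, 39.2 and 37.5 counts per count of the 13 protein genes, against 9.56 to 23.1 in the others. Within the protein-gene counts, mt-Co3, a subunit of complex IV, took 23.7%, 20.7% and 21.1% in them and 3.92% to 7.76% elsewhere. Some genes near it were high as well: mt-Atp8 took 1.54% to 2.08% against 0.0658% to 0.75%, mt-Atp6 5.97% to 7.67% against 1.71% to 3.65%, and mt-Nd3 2.59% to 3.32% against 0.173% to 1.28%. On the low side, mt-Co1 took 18% to 21.3% against 25.1% to 39%, and mt-Nd4 4.53% to 4.86% against 7.18% to 13.6%. So did mt-Nd5, at 5.52% to 7.23% against 7.74% to 15.8%, and mt-Nd6, at 0.358% to 0.421% against 0.685% to 2.94%. None of these ranges overlap. The high genes were not confined to that stretch. mt-Nd1, far from mt-Co3, took 17.1% to 19.9% against 8.4% to 9.57% in the treated libraries of batch 2, though 18.4% in ciNSLC replicate 3. Nearby, mt-Co2 took 5.26% to 5.69%, within the 3.93% to 8.14% of the others. mt-Nd4l took 0.00188% to 0.00484%, at the low end of all libraries. The D0, ciNSLC and SCR029 libraries of batch 1 did not share the high mt-Co3, but they did hold more mt-Atp8 (0.605% to 0.75%) than any library of batch 2 (0.0658% to 0.161%). Nuclear features shorter than 300 bases took 4.17% to 7.5% of nuclear counts in batch 1 and 0.115% to 1.3% in batch 2, and their part in these shares was not tested. Cell markers moved with the same libraries: the fibroblast sum was 1520 CPM in D4 replicate 1 against 11600 and 10200 in the other D4 libraries, 2560 against 13500 and 15000 at D8, and 9210 against 11400 and 11100 at D12. The neural stem sum was 101 CPM against 215 and 167 at D4, 553 against 202 and 230 at D8, and 1590 against 479 and 682 at D12, and the part of these differences was not tested. Results below are given with and without the 3 libraries where they rest on them. The 3 were chosen by their mitochondrial values, so calls of mitochondrial genes in the fit without them are descriptions and no independent support.

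**Figure D1:**
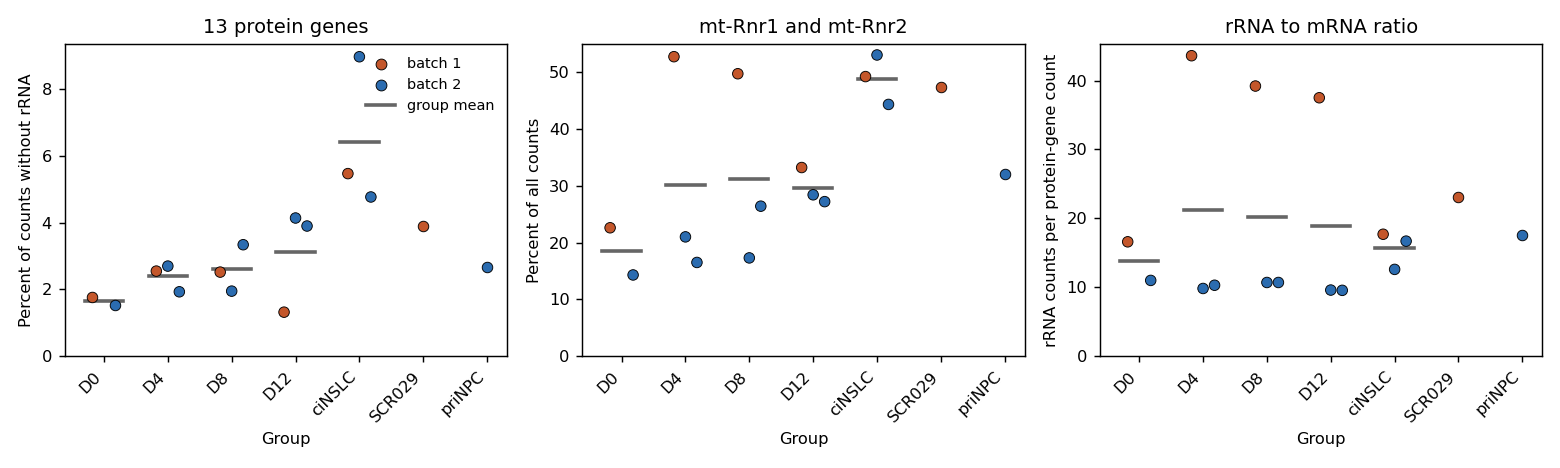
Each point is a library, coloured by batch, and grey bars are group means. The axes give the 13 protein genes as percent of counts without rRNA, the rRNA genes as percent of all counts, and the counts of the rRNA genes per protein-gene count, which are 37.5 to 43.6 in the batch 1 libraries of D4, D8 and D12 and 23.1 or lower elsewhere.

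**Figure D2:**
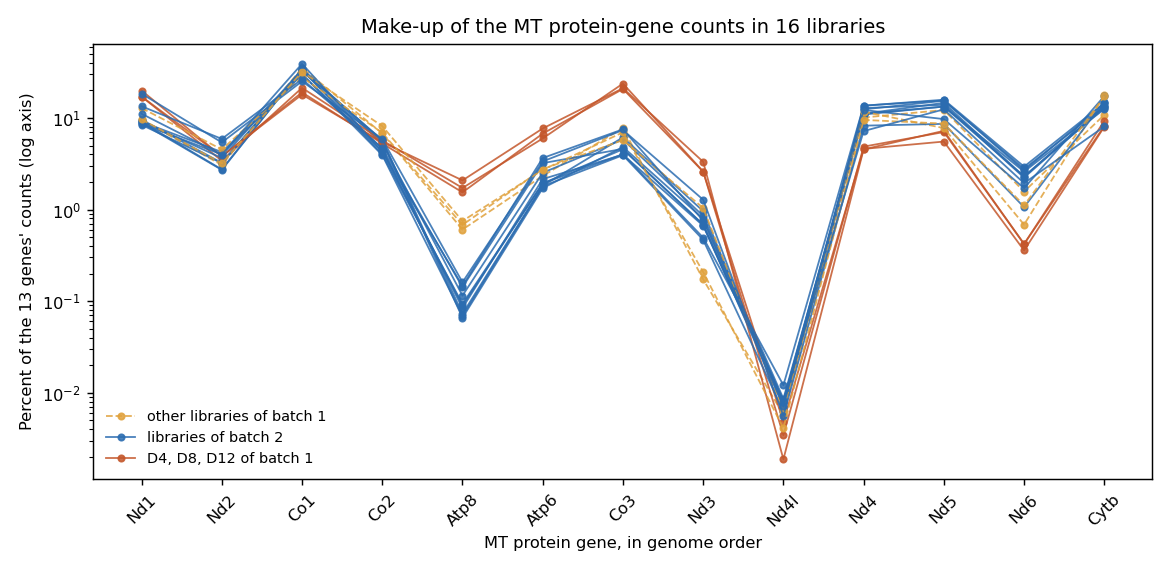
Percent of the 13 protein genes' counts taken by each gene (log axis), in genome order, with a line per library. The D4, D8 and D12 libraries of batch 1 lie above all others at mt-Atp8, mt-Atp6, mt-Co3 and mt-Nd3. They lie below all others at mt-Co1, mt-Nd4, mt-Nd5 and mt-Nd6.

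The mitochondrial protein genes were highest in the reprogrammed cells. They took 5.47%, 8.97% and 4.77% of the counts without rRNA in the 3 ciNSLC libraries and 1.76% and 1.52% at D0, and the groups did not overlap. In such bulk libraries fewer cells of a type and less RNA per cell cannot be told apart, and a share also depends on the nuclear RNA around it. The summed level was 63600 ± 23400 CPM (SD, n = 3) in ciNSLC and 17700 ± 2590 CPM (SD, n = 2) at D0. In batch 1 the ciNSLC library was 2.87-fold above the D0 library, and in batch 2 the mean of 2 ciNSLC libraries was 4.24-fold above the D0 library, with all 13 genes higher in each batch. As percent of all counts, rRNA included, the sums were 2.78, 4.21 and 2.66 against 1.36 and 1.3.

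For ciNSLC against D0, 6 of the 13 protein genes passed the test and all 6 were higher (edgeR's quasi-likelihood F-test, adjusted over 17570 genes by the Benjamini-Hochberg method, threshold 0.05; all adjusted p below are of this kind). Over all genes tested, 12.1% passed as higher. All 13 fitted log2 changes were above 0, with a median of 1.74, beside a median of -0.02 over all genes. In complex I, the NADH dehydrogenase, mt-Nd1 (ENSMUSG00000064341, MT:2751-3707) was 7173, 12080 and 8277 CPM in ciNSLC and 1867 and 1437 at D0. It rose by 2.48 on the log2 scale (SE 0.57, adjusted p = 0.0056). mt-Nd2 (ENSMUSG00000064345, MT:3914-4951) was 2541, 5304 and 2429 CPM against 597.9 and 435.2, a log2 change of 2.73 (SE 0.55, adjusted p = 0.0026). mt-Nd3 (ENSMUSG00000064360, MT:9459-9806) was near-equal in the ciNSLC libraries, at 584.2, 615.5 and 577.1 CPM, but 33.74 and 135.1 at D0. Its log2 change was 2.81 (SE 0.91, adjusted p = 0.035), but 2.12 (adjusted p = 0.21) without D0 replicate 1 and 4.17 (adjusted p = 0.037) without D0 replicate 2. In none of these 3 genes did a ciNSLC library lie as low as a D0 library.

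The other genes called in this comparison belong to complexes III, IV and V. mt-Cytb (MT:14145-15288), the cytochrome b of complex III, was 9946, 15510 and 6796 CPM in ciNSLC and 2111 and 1993 at D0, with a log2 change of 2.39 (SE 0.60, adjusted p = 0.0092). mt-Co2 (MT:7013-7696), which takes up electrons from cytochrome c in complex IV, was 3859, 4209 and 2643 CPM against 1325 and 832.3, with a log2 change of 1.74 (SE 0.38, adjusted p = 0.0043). mt-Atp6 (MT:7927-8607), a subunit of the proton channel of the ATP synthase, was 1548, 2883 and 1508 CPM against 455.8 and 400.1. Its log2 change of 2.21 (SE 0.78) lay closest to the threshold, with an adjusted p of 0.049, and the call was lost in 13 of 26 alternatives. For each of the 3 the lowest ciNSLC library was above the higher D0 library.

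The remaining 7 protein genes did not pass the test. Their log2 changes ran from 1.15 to 1.92, and the ciNSLC and D0 libraries did not overlap for mt-Co1, mt-Co3, mt-Nd4, mt-Nd4l and mt-Nd5. The share of all genes that separate in this way is not given. Separation of so few libraries, here and in the other comparisons, is therefore a description and adds no weight to a call. mt-Co1, the catalytic subunit of complex IV, was 15570, 23760 and 11290 CPM against 6873 and 5422 (log2 change 1.46, adjusted p = 0.086). mt-Nd6, the protein gene of the minus strand, was 384, 1538 and 475.8 CPM against 307.1 and 410.8, so that the groups overlapped. mt-Atp8 overlapped as well, at 381.9, 127.5 and 72.43 CPM against 118.2 and 18.23, and in both groups the batch 1 library was the highest.

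The call count rested on the libraries of D0 and ciNSLC and on the spread shared with the treated groups. Leaving out ciNSLC replicate 1, 2 or 3 gave 4 calls in each case. Without D0 replicate 2, the library with myeloid markers, 2 protein genes were called, and without D0 replicate 1 it was 3. With only the groups compared 8 were called, and with batch as a term 8. With replicate 1 of D4, D8 and D12 left out, 11 of 13 were called as higher, where 18.9% of all genes were. That changes this comparison through the shared spread, the filter and the scaling. The 3 libraries were chosen by the values of these same genes, so a smaller spread was built in. The number of all genes called ran from 3339 to 6957 over the alternatives, against 4895 in the main fit. The counts of protein genes under the alternatives are therefore not a result about these genes. The mt-Nd2 call was kept in all 26 alternatives, mt-Co2 and mt-Nd1 in 25, mt-Cytb in 24 and mt-Nd3 in 21.

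**Figure D3:**
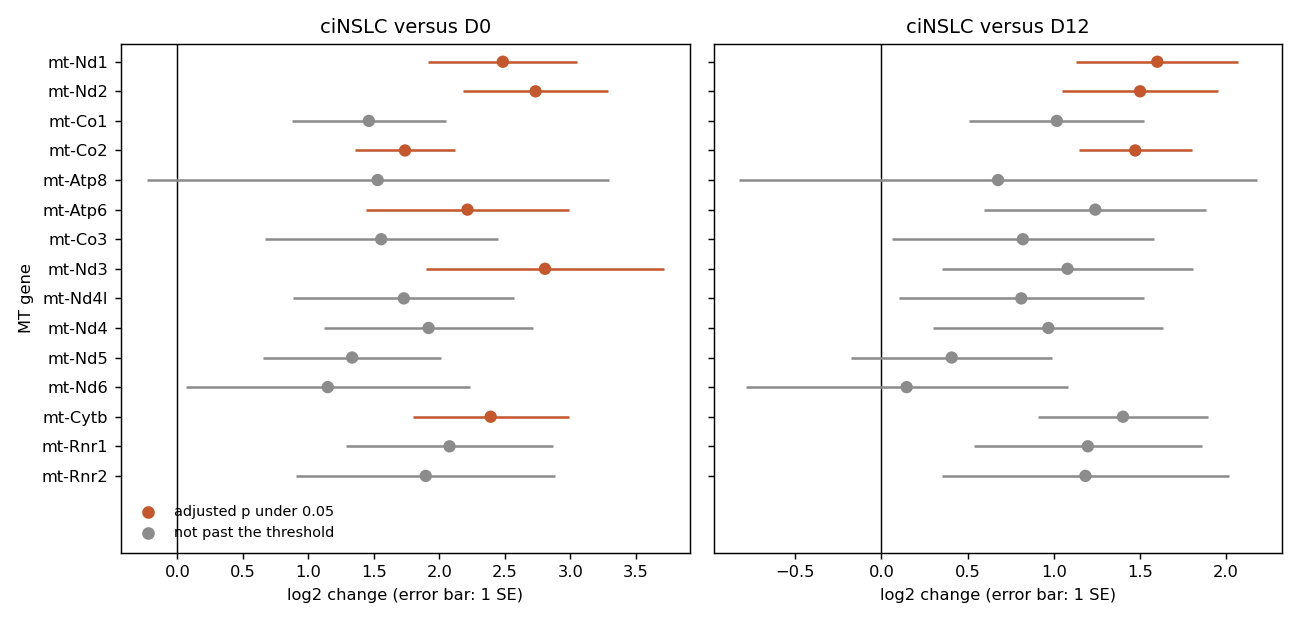
Fitted log2 change of the 13 protein genes, in genome order, and the 2 rRNA genes in ciNSLC against D0 and against D12, with lines of 1 SE. Orange marks an adjusted p under 0.05, which 6 protein genes reached against D0 and 3 against D12.

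Per kilobase of transcript, which corrects for length but not for reads shared with nuclear copies, mt-Co1, mt-Cytb and mt-Nd1 were highest on average at D0. The same genes were highest in ciNSLC. mt-Co1 was the highest at D0, at 3980 CPM per kb on average, followed by mt-Cytb at 1790 and mt-Nd1 at 1730, and the 2 libraries put mt-Co1 at 4448 and 3509. Below mt-Co1 the D0 libraries differed in order, with mt-Nd1 at 1950 and mt-Cytb at 1845 in replicate 1. In replicate 2 they were 1501 and 1742. In ciNSLC the means of mt-Co1, mt-Nd1 and mt-Cytb were 10900, 9590 and 9400 CPM per kb. These neighbours did not differ beyond their spread, since mt-Nd1 was the highest gene of ciNSLC replicate 3 and mt-Co1 of the other 2 libraries. mt-Nd4l was lowest in both groups, at 4.2 and 14 CPM per kb, a value that is uncertain because of its identical copy on chromosome 1. In replicate 1 of D4, D8 and D12 the highest gene per kb was mt-Co3, at 8653, 7069 and 3831 CPM per kb.

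Against D12, the last treated day, 3 protein genes were called in ciNSLC, all of them higher, and 11.2% of all genes passed as higher. These were mt-Nd1, with 2437, 3335 and 3269 CPM at D12 (log2 change 1.60, SE 0.47, adjusted p = 0.024), mt-Nd2, with 543.2, 1545 and 1527 CPM (1.50, SE 0.45, adjusted p = 0.026), and mt-Co2, with 774, 1522 and 1553 CPM (1.47, SE 0.33, adjusted p = 0.0053). Every ciNSLC library, at the values given above, lay above every D12 library for these genes. All 13 changes were above 0 with a median of 1.02, from 0.15 for mt-Nd6 to 1.60 for mt-Nd1, though 2 were below 0 without D12 replicate 1 and 2 without ciNSLC replicate 2. Within batch 2 alone, 7 were called, and with batch as a term 5. The number of all genes called moved as well, from 2964 to 8165 over the alternatives against 4798 in the main fit. These counts of protein genes are therefore not a result about them. Leaving out D12 replicate 1 or ciNSLC replicate 2 left 1, while leaving out replicate 1 of D4, D8 and D12 together gave 7, where 21.4% of all genes passed as higher. The mt-Co2 call was kept in all 26 alternatives.

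During the M9 days no protein gene passed the test against D0. The share of counts without rRNA was 2.55%, 2.7% and 1.93% at D4, 2.52%, 1.95% and 3.34% at D8, and 1.32%, 4.14% and 3.9% at D12. On this scale the values at D4 and D8 were all above both D0 libraries, and those at D12 lay on both sides of them, while with TMM factors the summed levels overlapped with D0 on each day (18500 to 28600 CPM at D4, 17900 to 31400 at D8 and 14200 to 38700 at D12, against 15900 and 19600). All 13 fitted changes were above 0 on each day, with medians of 0.41, 0.51 and 0.93, beside 0.02, 0.04 and 0.03 over all genes. With batch as a term 10, 12 and 12 of them were above 0. Single libraries moved these directions: 9 were above and 4 below 0 at D4 without D4 replicate 2. At D8 without D8 replicate 3 it was 8 and 5, with a median of 0.18. Of the 13, 0 were called on any day, where 6.99%, 6.96% and 10.3% of all genes were called in either direction. At an unadjusted p under 0.05, 1 gene passed on each day, and DESeq2 called 0. For mt-Nd3, the gene of lowest p at D4 and D8, the levels were 744, 174.6 and 146.7 CPM at D4 and 694, 171.7 and 214.3 at D8, with the batch 1 library the highest on each day, against 33.74 and 135.1 at D0. D12 against D4 gave 0 calls and 0 genes at an unadjusted p under 0.05, with 9 changes above 0 and 4 below, where 3.83% of all genes were called.

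The batches disagreed at D12. In batch 1 the summed level was 14200 CPM at D12 and 19600 at D0, a log2 difference of -0.46 with 5 genes higher and 8 lower. In batch 2 it was 37400 CPM as the mean of 2 libraries and 15900 at D0, a log2 difference of 1.23 with all 13 genes higher. At D4 and D8 the sums differed from D0 by 0.55 and 0.45 in batch 1 and by 0.49 and 0.63 in batch 2, but the genes did not all follow: in batch 1, 9 were higher and 4 lower at D4 and 8 higher and 5 lower at D8, and in batch 2 it was 12 and 1, and 13 and 0. For mt-Nd6 the log2 difference was -1.58 in batch 1 and 0.49 in batch 2 at D4. With replicate 1 of D4, D8 and D12 left out, 3 genes were called at D12, all higher, where 12.4% of all genes were: mt-Nd2 (log2 change 1.60, adjusted p = 0.031), mt-Cytb (1.43, adjusted p = 0.031) and mt-Nd5 (1.41, adjusted p = 0.041). That fit called 0 at D4 and at D8, where 12% and 14% of all genes were called in either direction. In it the log2 change of mt-Atp8 was -2.00 in place of 1.35 at D4 and -1.18 in place of 0.85 at D12, and that of mt-Co3 was -0.35 in place of 1.23 at D4, and neither gene passed in either fit.

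**Figure D4:**
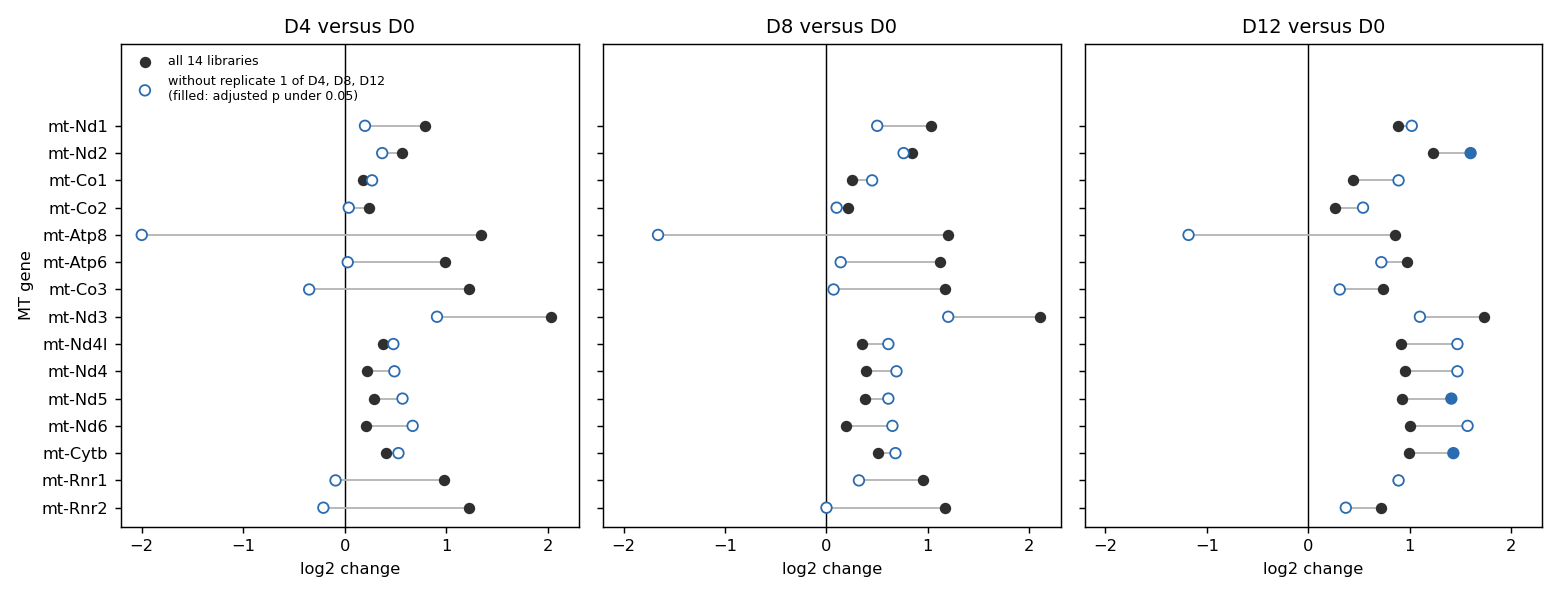
Fitted log2 change against D0 on each treated day with all 14 libraries (black) and without replicate 1 of D4, D8 and D12 (blue, filled where the adjusted p is under 0.05). mt-Atp8 changes sign on all 3 days, and the filled points are mt-Nd2, mt-Nd5 and mt-Cytb at D12.

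The rRNA genes took the largest share of mitochondrial counts and were not called in any comparison. mt-Rnr1 (MT:70-1024), the RNA of the small ribosomal subunit, was 265500, 418800 and 261900 CPM in ciNSLC and 98100 and 52720 at D0, on the scale that leaves rRNA out of the total. Its log2 change was 2.08 (SE 0.79, adjusted p = 0.068). mt-Rnr2 (MT:1094-2675), the RNA of the large subunit, was 729000, 712900 and 487300 CPM against 226800 and 122100, with a log2 change of 1.90 (SE 0.99, adjusted p = 0.18). The ciNSLC libraries were above both D0 libraries for each gene. Without replicate 1 of D4, D8 and D12 both passed as higher in ciNSLC than at D0, with adjusted p of 0.0042 for mt-Rnr1 and 0.0057 for mt-Rnr2. Those 3 libraries held 3.03, 3.31 and 2.95 counts of mt-Rnr2 per count of mt-Rnr1, and the others 1.57 to 2.75, highest in the batch 1 libraries of ciNSLC and SCR029. The rRNA counts per protein-gene count were 17.7, 12.6 and 16.7 in ciNSLC and 16.6 and 11.0 at D0, and these overlap.

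The tRNA rows held few counts. Their total was 161 to 1955 counts per library, mt-Td had no count in any library, and 5 of 22 stayed under 10 counts in every library. A count of 0 allows 3 counts, or 0.0868 to 0.207 CPM by library without TMM factors, and such limits cover counting error only. In ciNSLC against D0, 14 passed the filter on low counts and 2 were called, both higher, which is 14.3% of those tested beside the 12.1% of all genes. The other 12 tested were mt-Ta, mt-Tc, mt-Te, mt-Tg, mt-Th, mt-Tm, mt-Tn, mt-Tp, mt-Ts1, mt-Ts2, mt-Tv and mt-Ty. Their log2 changes ran from -3.20 for mt-Th to 4.46 for mt-Tg, and these extremes rest on few counts. mt-Th held 4, 0 and 1 counts in ciNSLC and 41 and 4 at D0, and mt-Tg 24, 5 and 5 against 0 and 1. With the controls in the fit mt-Tl2 and mt-Tq passed the filter as well, and 0 of 16 were called in either comparison with them. Without replicate 1 of D4, D8 and D12, mt-Te and mt-Tm also passed as higher in ciNSLC than at D0 (adjusted p of 0.015 and 0.022) and mt-Th as lower (0.029). mt-Tl1, whose row touches mt-Rnr2 on one side and mt-Nd1 on the other without a gap, held 674, 350 and 492 counts in ciNSLC, which came to 24.54, 24.22 and 25.29 CPM. At D0 it held 257 and 13 counts, or 8.273 and 0.5087 CPM, so that the D0 libraries differed far more than the ciNSLC libraries did. Its log2 change was 2.52 (SE 0.84, adjusted p = 0.040), but without D0 replicate 2 it was 1.61 (adjusted p = 0.11) and without D0 replicate 1 it was 5.57 (adjusted p = 0.00073).

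Against D12 mt-Tl1 was again higher in ciNSLC, and there the call was kept in all 26 alternatives. The D12 libraries were 1.261, 3.429 and 2.663 CPM, and the log2 change was 3.33 (SE 0.74, adjusted p = 0.0056). SCR029 was at 24.23 CPM and priNPC at 4.649, so that the controls did not share a level. mt-Tr held 18, 7 and 10 counts in ciNSLC and 0 and 3 at D0. Scaled by library size, the summed counts had a ratio of 11.7, with an exact 95% binomial interval of 3.70 to 59.6 for counting error. The fit gave an adjusted p of 0.048, which was lost in 15 of 26 alternatives. mt-Tp, the proline tRNA of the minus strand, was highest in 2 batch 1 libraries, at 1204 counts in D4 replicate 1 and 769 in SCR029, and at 29 to 495 in the others.

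The nuclear genes of mitochondrial DNA expression were followed as a list of 40, which covers transcription, replication, RNA processing, RNA decay and the regulators of these genes. In ciNSLC against D0, 1 was called higher and 3 lower, where 27.9% of all genes were called in either direction. Their median log2 change was 0.02. The gene called higher was Ppargc1a, a transcriptional coactivator of genes for mitochondrial biogenesis, at 154, 190 and 141 CPM in ciNSLC and 1.64 and 1.29 at D0. Its log2 change was 6.79 (SE 1.10, adjusted p = 0.00057). The genes called lower were Lonp1, the protease that degrades Tfam in the mitochondrial matrix (27.8, 27.4 and 25.6 CPM against 67.3 and 57.1, adjusted p = 0.0086), Fastk, which stabilises mt-Nd6 mRNA (log2 change -0.92, adjusted p = 0.015), and Pprc1, a coactivator related to Ppargc1a (-0.66, adjusted p = 0.044). The Ppargc1a call was kept in all 26 alternatives, while that of Lonp1 was lost in 1, of Fastk in 4 and of Pprc1 in 13. Without replicate 1 of D4, D8 and D12, 4 were called higher and 4 lower, where 40.3% of all genes were called in either direction. The RNA polymerase Polrmt and the packaging factor Tfam were not called in any of the 8 comparisons, but without replicate 1 of D4, D8 and D12 Tfam passed as higher in ciNSLC than at D12 (log2 change 0.84, adjusted p = 0.0073).

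At D12 against D0 the same list gave 1 higher and 1 lower call, or 5% of the 40, where 10.3% of all genes were called. In the fit without the 3 batch 1 libraries it was 6 higher and 5 lower, where 23.2% of all genes were called in either direction. Ppargc1a was 36.3, 7.39 and 11.5 CPM (log2 change 3.68, SE 0.95, adjusted p = 0.028), and its highest library was replicate 1. Without replicate 1 of D4, D8 and D12 its change was 2.70 (adjusted p = 2e-04), but without D12 replicate 1 alone it was 2.68 (adjusted p = 0.057), and without D0 replicate 1 or 2 the adjusted p was 0.14 or 0.16. Lonp1 was 28.6, 22.1 and 23.4 CPM, all below both D0 libraries (log2 change -1.31, SE 0.29, adjusted p = 0.014), and its call was lost in 4 of 26 alternatives. At D4 and D8, and for D12 against D4, 0 of the 40 were called, where 6.99%, 6.96% and 3.83% of all genes were. At an unadjusted p under 0.05 these counts were 4, 1 and 4. Without the 3 batch 1 libraries 2 genes were higher and 2 lower at D4, and again at D8. There 12% and 14% of all genes were called. For D12 against D4 it was 3 higher and 2 lower, where 8.36% of all genes were called. The share of all genes called rose along with these counts, so they are not a result about the list. In that fit Ppargc1a passed as higher at D4 (log2 change 1.78, adjusted p = 0.0032) and at D8 (2.42, adjusted p = 0.00057), and Lonp1 as lower at D12 than at D4 (-0.99, adjusted p = 0.011). In ciNSLC against D12, 4 were higher and 1 lower, where 27.3% of all genes were called in either direction. Those higher were Ppargc1a (log2 change 3.11, adjusted p = 0.0094), the RNase Z enzyme Elac2 (0.78, adjusted p = 0.014), the DNA polymerase Polg (0.77, adjusted p = 0.031) and Prorp, the catalytic protein of mitochondrial RNase P (0.54, adjusted p = 0.032). Elac2 and Prorp cut tRNAs out of the long transcripts at their 3′ and 5′ ends. The gene called lower was Mterf4, a factor of ribosome assembly (-0.87, adjusted p = 0.026). Of these, the Ppargc1a call was kept in all 26 alternatives, and the others were lost in 4 (Elac2), 6 (Polg), 7 (Mterf4) and 8 (Prorp). The fit without the 3 libraries gave 11 higher and 5 lower, where 45% of all genes were called.

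**Figure D5:**
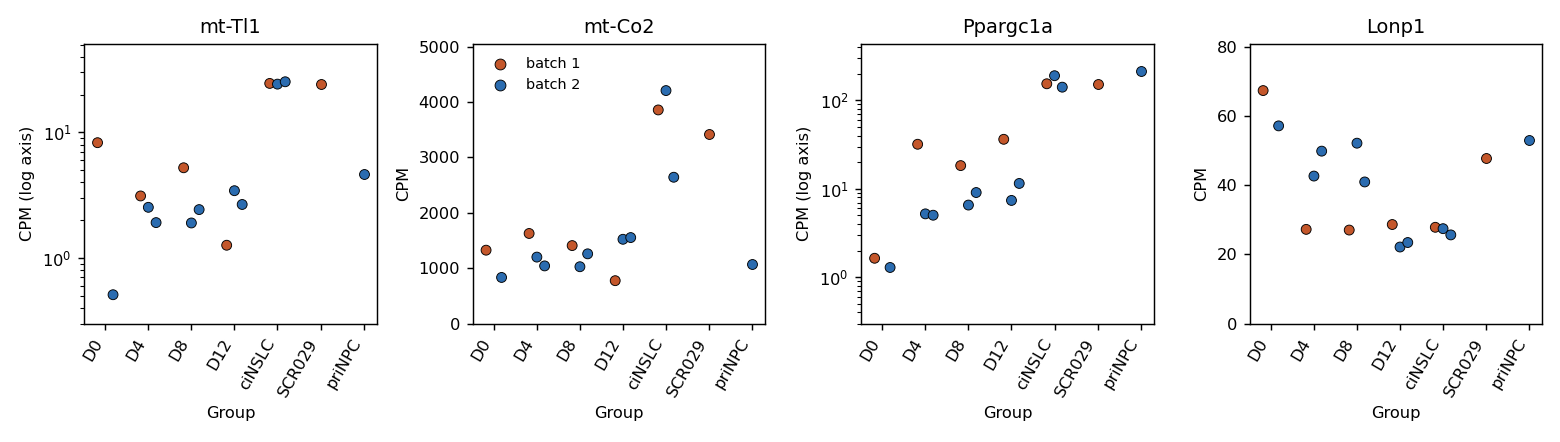
Levels by library of mt-Tl1 and Ppargc1a (log axes) and of mt-Co2 and Lonp1 (linear axes from 0), in CPM, coloured by batch. The ciNSLC libraries of mt-Tl1 lie at 24.22 to 25.29 CPM with SCR029 beside them, and priNPC is at 4.649.

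The neural controls lay between D0 and ciNSLC in their mitochondrial protein-gene share, at 3.9% of counts without rRNA in SCR029 and 2.68% in priNPC. Since they are different cells in different batches, they were fitted as a group of 2 only to give the test a spread. Against D0, 0 protein genes were called, where 24.1% of all genes were in either direction, and 0 passed at an unadjusted p under 0.05. DESeq2 also called 0. All 13 changes were above 0, with a median of 0.98, but with priNPC as the only control 9 were above and 4 below 0, with a median of 0.61. With SCR029 as the control 1 gene was called, with priNPC 0, and without replicate 1 of D4, D8 and D12 it was 3 (mt-Atp6, mt-Co3 and mt-Nd1), where 15.5% of all genes passed as higher. SCR029 and priNPC differed in single genes, for example in mt-Cytb, with 7233 and 2015 CPM, and in mt-Co2, with 3420 and 1070 CPM, and in both genes priNPC lay within the range of the D0 libraries.

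In ciNSLC against the controls 0 protein genes were called with edgeR, 3 passed at an unadjusted p under 0.05, and 1 was called with DESeq2, where 1.41% of all genes were called with edgeR in either direction. The 3 were mt-Nd2 (log2 change 1.55, SE 0.52, adjusted p = 0.18), mt-Nd1 (1.43, SE 0.54, adjusted p = 0.23) and mt-Nd3 (2.10, SE 0.86, adjusted p = 0.29). For each of them all 3 ciNSLC libraries were above both controls, for mt-Nd3 at 577.1 CPM or more against 87.47 in SCR029 and 189.4 in priNPC. Without replicate 1 of D4, D8 and D12 mt-Nd1 and mt-Nd3 passed, both at an adjusted p of 0.045, where 2.08% of all genes passed as higher. Among the nuclear genes, Ppargc1a was 155 CPM in SCR029 and 217 in priNPC and was called against D0 (log2 change 6.98, adjusted p = 5e-04). Polg, Prorp and the exonuclease Mgme1 were called higher against D0 as well, and the oligoribonuclease Rexo2 lower. Their log2 changes were 1.1, 0.77, 1.55 and -1.71, but 0.93, 0.4, 0.74 and -1.08 with SCR029 as the only control. These calls were lost in 4, 8, 3 and 3 of 26 alternatives. Without replicate 1 of D4, D8 and D12 the counts over the list were 4 higher and 2 lower, where 32.2% of all genes were called. In ciNSLC against the controls 0 of the 40 were called, with 4 at an unadjusted p under 0.05, and Lonp1 passed as lower without those 3 libraries (log2 change -0.88, adjusted p = 0.019), where 3.98% of all genes were called.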

How the data were processed

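Total RNA was reverse-transcribed with random and poly-T primers and amplified (NuGEN Ovation kit), then sequenced as read pairs, per the labels' protocols. The submitters' processing notes name TopHat2 2.0.13, mm9, featureCounts, Subread and edgeR. The authors deposited raw counts per gene, which were used here, and another unit, the feature length in bases, for levels per kilobase. The 48 deposited CPM and FPKM columns were not used. Library size and TMM factors were computed without mt-Rnr1 and mt-Rnr2. Genes passing filterByExpr were tested with edgeR 4.0.16 (robust quasi-likelihood F-test, R 4.3.3) and adjusted by Benjamini-Hochberg over all genes tested, at 0.05. D0, D4, D8, D12 and ciNSLC shared a fit of 14 libraries, and the controls, as a group, a fit of 16. SE is the change divided by the square root of F. Sums over members were not tested. The script was tested on simulated data with independent libraries and no batch effect, so that test does not cover the batch differences seen here. Depth was 14.5 to 34.6 M counts without rRNA, and intervals cover counting error only, since amplified reads are not independent molecules. The members and lists were chosen with earlier results of these data known. All protein and rRNA genes are named, tRNAs where they passed the filter, and of the nuclear list, matched through older symbols where needed, the genes called. mt-Tp, SCR029 against priNPC, and genes that were high or low in the batch 1 libraries were chosen after their values were seen. Alternatives were other scalings, no filter, DESeq2 1.42.0, a batch term, a replicate block, batch 2 alone, only the groups compared, a log2 limit of 1, leaving out each library and each control, and, chosen after seeing the data, leaving out replicate 1 of D4, D8 and D12.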

Additional observations from a re-analysis of the deposited data

How the results depend on the processing

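At D4, at D8 and for D12 versus D4 the count was 0 under every alternative run, and for D12 versus D0 under all but one. With replicate 1 of D4, D8 and D12 left out, the counts were 3 for D12 versus D0, 11 for ciNSLC versus D0, 7 for ciNSLC versus D12, 3 for the controls versus D0 and 2 for ciNSLC versus the controls. Leaving out each library in turn gave 2 to 8 for ciNSLC versus D0 and 1 to 4 for ciNSLC versus D12, and where a group was left with 1 library it was assumed to vary like the others. For ciNSLC versus D12, a batch term gave 5 and batch 2 alone 7. SCR029 as the only control gave 1 for the controls versus D0, and DESeq2 gave 1 for ciNSLC versus the controls. The cause was not tested. The summed-level difference of ciNSLC from D0 was 1.84 on the log2 scale and 1.27 as percent of all counts, and that of D12 was 0.74, or -0.46 within batch 1. The deviations of same-numbered libraries from their group means correlated at 0.14 to 0.739 for number 1, which is batch 1 in every group. For number 2 it was 0.005 to 0.402 and for number 3 -0.016 to 0.483. Libraries of number 1 thus deviated together, and the numbers 2 and 3 do not pair all of theirs. Between D4 and D8, replicates 2 and 3 correlated more with the unlike number (0.687 and 0.666) than with the same number (0.394 and 0.413). The replicate block gave 8 calls for ciNSLC versus D0, 4 for ciNSLC versus D12 and 0 for D4, D8 and D12. It was not run for the controls, whose titles carry no number. The share of all genes called with it is not given, so its counts are not a result about the protein genes. Omitting the TMM factor moved the median of all genes to 0.13, 0.17 and 0.16 at D4, D8 and D12. The number of all genes called ranged over the alternatives from 560 to 2625 (1229 as reported) at D4, 542 to 2729 (1222) at D8, 785 to 4012 (1817) at D12, 3339 to 6957 (4895) for ciNSLC versus D0, 186 to 2892 (673) for D12 versus D4, 2964 to 8165 (4798) for ciNSLC versus D12, 1503 to 5584 (4266) for the controls versus D0 and 22 to 992 (250) for ciNSLC versus the controls. No called gene changed direction under any alternative, and 124 of 728 alternative values for called genes lost the call.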
